A study of Homo sapiens with 8 samples.

Results

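The 35 genes described here encode aminoacyl-tRNA synthetases, 19 of the cytosol and 16 of the mitochondria. They were chosen by name: each is the row of the deposited count table whose gene identifier carries the symbol, with the suffix 2 marking the mitochondrial enzymes that have it (EARS2, FARS2 and PARS2 included), and FARSA and FARSB being the 2 subunits of the cytosolic phenylalanyl enzyme. All 35 symbols were found among the 60230 genes of the table, and all 35 were among the 13400 genes with enough counts to be tested. The cells were CYP2C19-overexpressing HepG2 cells, a human liver cancer line carrying additional copies of a drug-metabolizing cytochrome P450 gene and kept under blasticidin selection, so that every group, the control included, shares that transgene. For 24 h the cells received DMSO, the solvent, or 1 of 3 plastic-related antioxidants, namely compound 4 (metylcresol in the labels), compound 5 (tetrabut) or compound 6 (cyclohexil). Each compound was given at its own IC50, so the concentrations differed between compounds. The paper describes these IC50 values as rather comparable. Each of the 4 groups had 2 replicates, which the labels call day 1 and day 2. The labels name replicate 1 of DMSO and replicate 1 of compound 4 as merged, and no other library. The promoter of the transgene and whether the line is a single clone are not given in the sources used here.

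The total count per library ranged from 9791659 to 17814595. All 10 hepatocyte markers were detected, with a summed level between 32500 and 49400 CPM (the TMM-normalized count scaled to a common library size), highest in the DMSO libraries. Of the markers of other cell types, 3 of 6 fibroblast, 2 of 5 endothelial and 2 of 5 leukocyte genes were at 0 in every library, PTPRC and CD3E among the last. The fibroblast sum was 5.11 to 25.4 CPM, nearly all of it PDGFRB, the endothelial sum 0.74 to 2.08 CPM, and the leukocyte sum 1420 to 2190 CPM, of which LYZ made up 1380 to 2160 CPM. CYP2C19 itself was at 27.7 and 16.4 CPM in the DMSO libraries, 31.4 and 44.3 CPM with compound 4, 52.8 and 38 CPM with compound 5 and 23.9 and 21.2 CPM with compound 6, and no library of unmodified HepG2 cells was analysed here to set these against.

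Aminoacyl-tRNA synthetases join each amino acid to the tRNA that reads its codons, and so supply the ribosome with charged tRNA. Cytosolic and mitochondrial translation use separate sets of enzymes encoded by separate nuclear genes, with exceptions: GARS1 and KARS1 each encode both forms, and mitochondria lack a glutaminyl-tRNA synthetase and instead amidate the glutamate that EARS2 attaches. Several cytosolic enzymes (EPRS1, IARS1, KARS1, LARS1, MARS1, QARS1 and RARS1 among these members) sit in a multisynthetase complex on the scaffold proteins AIMP1, AIMP2 and EEF1E1. When uncharged tRNA or endoplasmic reticulum stress activates the kinases of eIF2α, the factor ATF4 is translated and is known to raise genes of amino acid synthesis, amino acid import and tRNA charging.

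Because ATF4 and C/EBP factors are known to bind a composite response element with the core TGATGNAA, the promoter windows of the members were searched for it. The windows were RefSeq sequences on GRCh38.p14 running from 250 bases before to 50 bases after a gene's start, both strands were read, and the core does not contain the other motifs searched. A window was at hand for 30 of the 35 members, and those without were VARS1, LARS1, YARS1, AARS2 and VARS2. The core occurred in 7 of the 16 cytosolic members with a window (43.8%) and in 1 of the 14 mitochondrial members (7.14%), against 268 of 10033 tested genes with a window (2.67%) and 1217 of 27305 genes of all kinds (4.46%). The 8 matches are printed because 5 of the 8 synthetase genes called under any compound are among them. Each is 30 bases, 5′ to 3′ in the direction of transcription, with the core or its reverse complement in capitals.
AARS1: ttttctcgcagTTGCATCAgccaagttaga
CARS1: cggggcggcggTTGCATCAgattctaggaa
GARS1: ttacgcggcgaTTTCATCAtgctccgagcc
IARS1: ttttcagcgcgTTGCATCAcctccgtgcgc
MARS1: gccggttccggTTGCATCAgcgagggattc
NARS1: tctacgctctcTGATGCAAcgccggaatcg
TARS1: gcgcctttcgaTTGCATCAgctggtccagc
YARS2: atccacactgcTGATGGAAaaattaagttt

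Of the 7 cytosolic matches, 6 lay within 33 bases of the start, at chr11:3057407-3057436 for CARS1, chr7:30594834-30594863 for GARS1, chr9:92293692-92293721 for IARS1, chr12:57488053-57488082 for MARS1, chr18:57621804-57621833 for NARS1 and chr5:33440956-33440985 for TARS1. The AARS1 match (chr16:70289675-70289704) began 187 bases upstream of the start, and the only mitochondrial one, of YARS2 (chr12:32756076-32756105), began 197 bases upstream. The capitals read TTGCATCA on the printed strand in AARS1, CARS1, IARS1, MARS1 and TARS1, and NARS1 holds the same letters on its other strand. The cAMP response element (TGACGTCA) was in the window of 0 of 16 cytosolic and 0 of 14 mitochondrial members, against 3.87% of tested genes, and the E-box (CACGTG) was in 1 of 16 (IARS1) and 3 of 14 (CARS2, EARS2 and MARS2), against 12.8%. These are matches of letters, and no binding was measured.

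In DMSO-treated cells the cytosolic genes were the more abundant set. Divided by the length of the longest transcript, their mean level ran from 16.2 CPM per kb (CARS1) to 96.4 CPM per kb (KARS1), with a median of 46.6, whereas the mitochondrial genes ran from 3.96 CPM per kb (PARS2) to 53.3 CPM per kb (IARS2), with a median of 14.4. KARS1, at 96.4 ± 2.22 CPM per kb (SD, n = 2), stood above QARS1 (87.9 ± 0.859), GARS1 (87.2 ± 6.59) and AARS1 (84.6 ± 1.18). The DMSO libraries of GARS1, at 91.8 and 82.5 CPM per kb, lay on either side of those of QARS1 and AARS1, which did not overlap with each other. IARS2 was the only mitochondrial gene among the 14 most abundant members. It was followed in its set by CARS2 (28.6 ± 1.52) and VARS2 (23.6 ± 1.62). At the low end, PARS2 (3.96 ± 0.296), WARS2 (6.00 ± 1.2) and FARS2 (6.49 ± 0.617), which charge the mitochondrial tRNAs of proline, tryptophan and phenylalanine, were the least abundant of all 35.

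A group of cytosolic synthetase genes was higher with compounds 4 and 5. With compound 6 the changes were of similar size but did not pass the test. No mitochondrial gene passed it in edgeR. Of all tested genes, 9.51%, 8.30% and 0.575% passed it in either direction with compounds 4, 5 and 6. In other fits LARS2 was called lower with compound 4, as given below. Against DMSO the median log2-fold change of the 19 cytosolic members was 0.30 with compound 4, 0.34 with compound 5 and 0.37 with compound 6, and that of the 16 mitochondrial members was −0.04, −0.04 and −0.05, beside 0.01, 0.00 and 0.02 over all genes tested. The 3 comparisons share the DMSO libraries and are not independent of each other. The values are relative levels in bulk RNA, in which fewer cells of a type and less RNA per cell cannot be told apart. A fold change was called where its adjusted p (edgeR's quasi-likelihood test, Benjamini-Hochberg over the 13400 genes) was below 0.05.

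**Figure D1:**
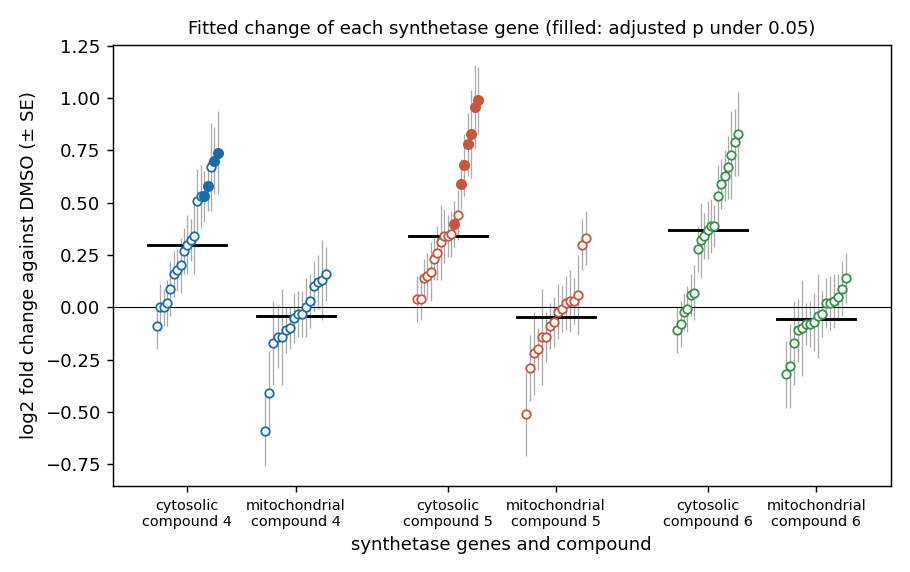
Log2-fold change against DMSO (vertical axis, with its SE) of each cytosolic and mitochondrial synthetase gene under each compound (horizontal axis), filled where called, with black bars at the medians. The cytosolic genes spread from about 0 up to 0.99 and the mitochondrial genes lie around 0, and called genes are cytosolic ones under compounds 4 and 5.

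With compound 4, 4 of the 19 cytosolic members passed the test, all of them higher, where 5.60% of all tested genes were called higher. At an unadjusted p under 0.05 there were 10, where 15.1% of tested genes were higher. AARS1, the alanyl enzyme (ENSG00000090861), was at 297 and 291 CPM with DMSO and at 389 and 491 CPM with compound 4, a log2-fold change of 0.58 (SE 0.12, adjusted p = 0.0196). YARS1, the tyrosyl enzyme, went from 150 and 153 CPM to 197 and 239 CPM (log2-fold change 0.53, SE 0.12, adjusted p = 0.0240), and overlaps S100PBP on the opposite strand. Both genes were nearly equal in the control libraries and separated from both by the treated ones. GARS1, the glycyl enzyme of both compartments, was at 242 and 217 CPM with DMSO and at 324 and 420 CPM with compound 4 (0.70, SE 0.16, adjusted p = 0.0296). CARS1, the cysteinyl enzyme, was at 44.1 and 45.6 CPM with DMSO and at 61.9 and 87.4 CPM with compound 4 (0.74, SE 0.20, adjusted p = 0.0496), the largest change of the set and the closest to the threshold. In all 4 genes the second replicate was the higher one. SARS1 (0.67, adjusted p = 0.0724), MARS1 (0.53, adjusted p = 0.0586) and TARS1 (0.51, adjusted p = 0.0655) did not pass. In the fit blocked on replicate MARS1 passed (adjusted p = 0.0356).

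With compound 5, 7 of the 19 cytosolic members passed the test, all higher, where 5.35% of tested genes were called higher. At an unadjusted p under 0.05 there were 12 (15.6% of tested genes). GARS1 had the largest change of any member, at 509 and 404 CPM with compound 5, a log2-fold change of 0.99 (SE 0.16, 95% confidence interval 0.62 to 1.36, adjusted p = 0.0111). CARS1 was at 94.0 and 80.2 CPM (0.96, SE 0.20, adjusted p = 0.0229). Either gene was thus about 2 times its level in DMSO, by a fold of 1.99 for GARS1 and 1.94 for CARS1. SARS1, the seryl enzyme, was at 92.0 and 83.3 CPM with DMSO and at 177 and 135 CPM with compound 5 (0.83, SE 0.21, adjusted p = 0.0402). MARS1, the methionyl enzyme that also charges the cytosolic initiator tRNA, was at 186 and 205 CPM with DMSO and at 353 and 320 CPM with compound 5 (0.78, SE 0.15, adjusted p = 0.0190). TARS1, the threonyl enzyme, was at 120 and 115 CPM with DMSO and at 201 and 177 CPM with compound 5 (0.68, SE 0.15, adjusted p = 0.0295). In these 3 genes, too, the treated libraries lay well above both controls, and replicate 1 was the higher of the pair. YARS1 was at 231 and 224 CPM (0.59, SE 0.12, adjusted p = 0.0190), close together. HARS1, the histidyl enzyme, had the smallest called change, from 79.3 and 73.2 CPM to 102 and 98.7 CPM (0.40, SE 0.11, adjusted p = 0.0488), and it was called in only 5 of 14 alternatives, with an adjusted p of 0.0753 in edgeR on the 4 libraries compared. AARS1, called with compound 4, was at 399 and 396 CPM with compound 5 (0.44, SE 0.12) and missed the threshold by little, with an adjusted p of 0.0550, or 0.0379 with the replicate block.

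With compound 6 the cytosolic changes were of similar size, but none of the 19 passed the test, where 0.493% of tested genes were called higher. CARS1 was at 65.3 and 94.3 CPM (log2-fold change 0.83, SE 0.20), GARS1 at 355 and 436 CPM (0.79, SE 0.16) and SARS1 at 122 and 170 CPM (0.73, SE 0.21). YARS1, at 222 and 246 CPM, had the smallest adjusted p of the members in edgeR (0.63, SE 0.12, adjusted p = 0.0509), which became 0.0468 with the replicate block. Without adjustment, 12 of the 19 were higher at p under 0.05, where 10.9% of tested genes were. The Wald test of DESeq2 called 7 of the 19 higher with compound 6 (AARS1, CARS1, GARS1, MARS1, SARS1, TARS1 and YARS1), where it called 2.61% of genes higher, and edgeR on only the 4 libraries compared called 9 (4.39% of genes).

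Of the 19 cytosolic genes, 8 were called under at least 1 compound, and CARS1, GARS1 and YARS1 under both compounds 4 and 5. Higher with an unadjusted p under 0.05 under each of the 3 compounds were 9 members (the 8 called ones and NARS1, the asparaginyl enzyme), where 5.81% of tested genes were. In 12 of the 19, or 63.2%, all 6 treated libraries exceeded both DMSO libraries, as they did in 14.4% of tested genes. These counts rest on few libraries. Leaving out either DMSO replicate 1 or DMSO replicate 2 left 0 members called under any compound, leaving out replicate 2 of compound 4 left 0 called with that compound, and leaving out replicate 1 of compound 5 left 0 called with that one, whereas 7 were called with compound 4 once its replicate 1 was left out. As libraries were left out, the log2-fold change with compound 5 ranged from 0.80 to 1.15 for GARS1 and from 0.83 to 1.07 for CARS1. Some smaller changes turned negative, such as that of IARS1 with compound 4 (−0.09 to 0.24), FARSB with compound 5 (−0.03 to 0.11) and VARS1 with compound 6 (−0.08 to 0.20).

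**Figure D2:**
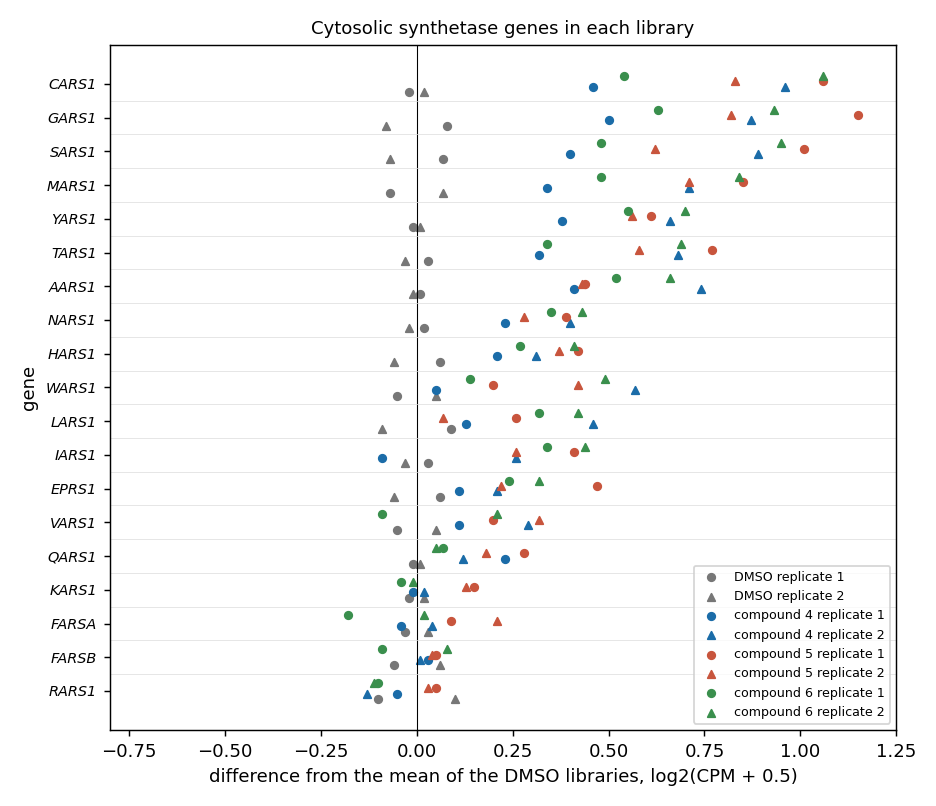
Log2(CPM + 0.5) minus its mean over both DMSO libraries (horizontal axis) of each of the 19 cytosolic synthetase genes (vertical axis) in each of the 8 libraries, coloured by group with the replicate given by the symbol. From CARS1, at up to 1.06, down to HARS1 all 6 treated libraries stand to the right of both DMSO libraries, and at the lower end KARS1, FARSA, FARSB and RARS1 lie around 0.

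The changes were uneven within the cytosolic set, of which 11 genes passed the test under no compound. Among these NARS1 was at 144 and 140 CPM with DMSO and between 167 and 192 CPM in the 6 treated libraries, with log2-fold changes of 0.32, 0.34 and 0.39 for compounds 4, 5 and 6. EPRS1, the joint glutamyl and prolyl enzyme, was at 236 and 218 CPM with DMSO and between 244 and 314 CPM in treated cells (0.16, 0.35 and 0.28). Both genes thus lay above the controls in every treated library, with smaller log2-fold changes than most of the called genes. WARS1, the tryptophanyl enzyme, was at 53.1 and 57.0 CPM with DMSO and between 57.1 and 81.7 CPM in treated cells (0.34, 0.31 and 0.32, SE 0.18), with its compound 4 libraries at 57.1 and 81.7 CPM. LARS1, the leucyl enzyme, had log2-fold changes of 0.30, 0.17 and 0.37, IARS1, the isoleucyl enzyme, of 0.09, 0.34 and 0.39, VARS1, the valyl enzyme, of 0.20, 0.26 and 0.07, and QARS1, the glutaminyl enzyme, of 0.18, 0.23 and 0.06. Their adjusted p was between 0.12 and 0.81.

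At the other end of the set, KARS1, the lysyl enzyme and the most abundant per length, was at 230 and 237 CPM with DMSO and between 228 and 258 CPM in treated cells. Its log2-fold changes of 0.00, 0.14 and −0.02 had 95% confidence intervals that together reached from −0.22 to 0.34. FARSB was at 70.1 and 76.4 CPM with DMSO and between 68.7 and 77.1 CPM in treated cells (0.02, 0.04 and −0.01), and FARSA, which codes for the other subunit of the same enzyme, was at 138 and 145 CPM with DMSO and between 125 and 164 CPM in treated cells (0.00, 0.15 and −0.08). RARS1, the arginyl enzyme, was at 102 and 116 CPM with DMSO and between 99.5 and 113 CPM in treated cells (−0.09, 0.04 and −0.11). The upper limits for RARS1 of 0.14, 0.27 and 0.13 lay below the lower limits for GARS1 of 0.33, 0.62 and 0.42.

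With compounds 4 and 5, a smaller share of the multisynthetase complex members was called than of the others. With compound 5, 1 of the 7 (MARS1) and 6 of the 12 outside it were called, where 5.35% of tested genes were called higher. With compound 4, 0 of 7 and 4 of 12 were called (5.60% of tested genes), and with compound 6, 0 of 7 and 0 of 12 (0.493%). Their median log2-fold changes were 0.16, 0.23 and 0.28 within the complex and 0.42, 0.42 and 0.46 outside it for compounds 4, 5 and 6. At an unadjusted p under 0.05 there were 2, 4 and 4 of the 7 and 8, 8 and 8 of the 12, all higher. Of all tested genes, 15.1%, 15.6% and 10.9% were. DESeq2 called 1, 1 and 1 of the 7 and 6, 7 and 6 of the 12, where it called 6.29%, 7.19% and 2.61% of genes higher. This division was made after the values were seen and was not tested. Of the scaffold genes, 0 of 3 were called under any compound in edgeR and 0 in DESeq2, with 0 at an unadjusted p under 0.05. Of all tested genes, 9.51%, 8.30% and 0.575% were called in edgeR in either direction. The shares were 10.8%, 10.4% and 3.91% in DESeq2 and 27.5%, 28.4% and 18.6% by unadjusted p. AIMP1 had log2-fold changes of 0.12, −0.17 and 0.08, AIMP2 of −0.06, −0.17 and −0.07 and EEF1E1 of 0.26, 0.26 and 0.39.

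The genes with the printed response element had the larger median changes. Of the 7 cytosolic members that hold it, 3, 4 and 0 were called with compounds 4, 5 and 6 (5, 5 and 5 in DESeq2). At an unadjusted p under 0.05 there were 6, 7 and 7, and the median log2-fold changes were 0.53, 0.68 and 0.59. Of the 9 that have a window without it, 0, 2 (HARS1 and SARS1) and 0 were called (1, 2 and 1 in DESeq2). At an unadjusted p under 0.05 there were 2, 4 and 3, and the medians were 0.16, 0.23 and 0.06. Of all tested genes, 5.60%, 5.35% and 0.493% were called higher, and 6.29%, 7.19% and 2.61% in DESeq2. By unadjusted p, 15.1%, 15.6% and 10.9% were higher. The division was not clean. IARS1 holds the element and had a log2-fold change of 0.09 with compound 4, SARS1 has 2 windows without it and had 0.67, 0.83 and 0.73, and YARS1, called with compounds 4 and 5, was not searched. YARS2, the only mitochondrial holder, was at 27.0 and 29.8 CPM with DMSO and between 28.9 and 35.7 CPM in treated cells, with log2-fold changes of 0.16, 0.30 and 0.09 (adjusted p = 0.455, 0.149 and 0.754). No test was made over these groups of genes.

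None of the 16 mitochondrial members was called against DMSO under any compound in edgeR, where 9.51%, 8.30% and 0.575% of tested genes were called in either direction for compounds 4, 5 and 6. DESeq2 called 1, 0 and 0, where it called 10.8%, 10.4% and 3.91% of genes. At an unadjusted p under 0.05 there were 1, 3 and 0, where 27.5%, 28.4% and 18.6% of tested genes were. The half-width of their 95% confidence intervals had a median of 0.29 to 0.30 on the log2 scale, beside 0.27 in the cytosolic set. All 6 treated libraries exceeded both DMSO libraries in 0 of the 16 and lay below both in 1 (IARS2), where these were the case in 14.4% and 11.7% of tested genes.

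The mitochondrial gene nearest to a call was LARS2, the leucyl enzyme, which was lower. It was at 60.1 and 73.6 CPM with DMSO, at 41.8 and 46.9 CPM with compound 4, at 46.0 and 63.1 CPM with compound 5 and at 53 and 54.3 CPM with compound 6. With compound 4 the log2-fold change was −0.59 (SE 0.17, adjusted p = 0.0529), and the adjusted p was 0.0218 with the replicate block and 0.0166 in DESeq2. With compounds 5 and 6 it was −0.29 and −0.32 (adjusted p = 0.266 and 0.333). AARS2, the alanyl enzyme, leaned the same way, from 31.1 and 37.8 CPM to 24.3 and 27.6 CPM with compound 4 (−0.41, SE 0.20, adjusted p = 0.218), but its compound 5 libraries were at 23.3 and 35.7 CPM, on either side of the lower control. PARS2, the prolyl enzyme, was at 8.81 and 9.80 CPM with DMSO and at 5.60 and 7.40 CPM with compound 5 (−0.51, SE 0.20, adjusted p = 0.134).

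Among the other mitochondrial genes, MARS2 leaned upwards with compound 5, as did YARS2, given above. MARS2, the methionyl enzyme, was at 26.6 and 28.2 CPM with DMSO and at 33.2 and 35.6 CPM with compound 5 (0.33, SE 0.13, adjusted p = 0.131), but its log2-fold change was 0.03 with compound 6. WARS2 was at 19.2 and 14.6 CPM in the DMSO libraries, which lay as far apart as most of the treated ones (13.9 to 19.8 CPM). IARS2, the most abundant, was at 187 and 192 CPM with DMSO and between 163 and 187 CPM in treated cells (−0.10, −0.20 and −0.08). The log2-fold changes of CARS2, EARS2, FARS2, HARS2, NARS2, RARS2, SARS2, TARS2 and VARS2 lay between −0.14 and 0.14 under every compound. SARS2 shares 71.6% of its stretches of 75 bases with another gene model, ENSG00000269547, so its counts are uncertain.

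**Figure D3:**
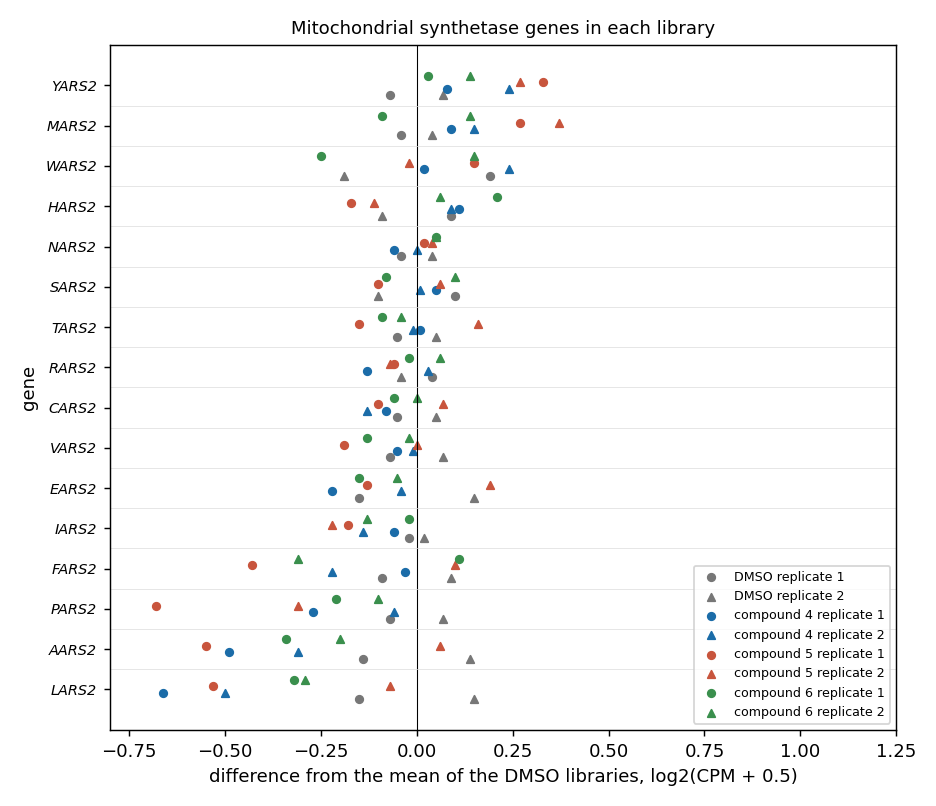
Log2(CPM + 0.5) minus its mean over both DMSO libraries (horizontal axis, on the same scale as the plot of the cytosolic genes) of each of the 16 mitochondrial synthetase genes (vertical axis) in each of the 8 libraries, coloured by group with the replicate given by the symbol. Most treated libraries overlap with the DMSO libraries, and LARS2, AARS2 and PARS2 reach to −0.66, −0.55 and −0.68.

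Set side by side by amino acid, the cytosolic gene had the larger log2-fold change in 12 of 13 pairs with compound 4, 13 of 13 with compound 5 and 12 of 13 with compound 6. The exception was arginine, where RARS1 minus RARS2 was −0.04 with compound 4 and −0.13 with compound 6. The difference was widest for alanine with compounds 4 and 6 (0.99 and 0.87) and for cysteine with compound 5 (0.97). Its median over the pairs was 0.37, 0.46 and 0.54. HARS1 and HARS2 form an unusual pair, as they lie head to head on chromosome 5 with starts 85 bases apart and promoter windows that share 184 bases (chr5:140691321-140691504). With compound 5, HARS1 had a log2-fold change of 0.40, a call lost in most alternatives as given above, whereas HARS2 was at 39.6 and 34.8 CPM with DMSO and at 33.0 and 34.3 CPM with compound 5 (−0.14, SE 0.12, adjusted p = 0.468). The 2 genes also overlap on opposite strands, and HARS2 shares 3.20% of its stretches of 75 bases with ZMAT2.

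Relative to the DMSO mean, the gap between the sets was seen in each of the 6 treated libraries. The median cytosolic member differed from the DMSO mean by −0.01 and 0.01 in the DMSO libraries on the scale of log2(CPM + 0.5), by 0.21 and 0.40 with compound 4, by 0.41 and 0.32 with compound 5 and by 0.32 and 0.43 with compound 6. The median mitochondrial member differed by −0.05 and 0.05, by −0.05 and −0.01, by −0.14 and 0.05 and by −0.08 and −0.01, respectively. The cytosolic median minus the mitochondrial one was thus 0.04 and −0.04 in the DMSO libraries and between 0.27 and 0.54 in the 6 treated libraries. The summed cytosolic level was 2960 and 2947 CPM with DMSO and between 3422 and 4179 CPM in treated cells, while the summed mitochondrial level was 748 and 796 CPM with DMSO and between 693 and 768 CPM in treated cells. No test was made of these medians and sums.

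Between compounds, 0 of the 35 members were called in any of the 3 direct comparisons, 105 tests in all, where 0.313% of tested genes were called between compounds 4 and 5, 0% between 4 and 6 and 1.03% between 6 and 5. DESeq2 called 0 as well, where it called 1.57%, 0.496% and 3.06% of genes. At an unadjusted p under 0.05 there were 0, 1 and 2 members, where 16.2%, 7.05% and 18.5% of tested genes were. The concentrations differ, so the values stand side by side. The log2 differences of the cytosolic genes lay between −0.29 and 0.15 for compound 4 against 5, between −0.30 and 0.14 for 4 against 6 and between −0.23 and 0.20 for 6 against 5. The half-width of their 95% confidence intervals had a median of 0.27. Of the cytosolic genes in the comparison of compound 4 with 5, GARS1 had the lowest value (−0.29, 95% confidence interval −0.66 to 0.07), and in that of 4 with 6 IARS1 had the lowest (−0.30, −0.58 to −0.01, adjusted p = 0.671). Intervals of this width do not show that the compounds act alike.

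Of the genes of the amino acid response, a list of 27, 26 were tested (CHAC1 had 0 counts in every library). Called higher were 9 with compound 4, 16 with compound 5 and 3 with compound 6, where 5.60%, 5.35% and 0.493% of tested genes were, and none was called lower. The counts were 13, 19 and 10 in DESeq2, where it called 6.29%, 7.19% and 2.61% of genes higher. In the blocked fit they were 13, 15 and 2, where 7.31%, 6.63% and 0.418% of genes were called higher. Their median log2-fold changes were 0.65, 0.70 and 0.66. ASNS, asparagine synthetase, was at 59.1 and 53.3 CPM with DMSO, at 111 and 184 CPM with compound 4, at 195 and 142 CPM with compound 5 and at 154 and 209 CPM with compound 6 (1.4, 1.58 and 1.69, adjusted p = 0.0119, 0.00958 and 0.0325). It was called under all 3 compounds. ATF4 was called with compound 5 only in edgeR (0.65, adjusted p = 0.0222, with 0.40 and 0.42 for compounds 4 and 6). DDIT3, the CHOP factor, was at 13.9 and 11.1 CPM with DMSO and between 19.4 and 70.1 CPM in treated cells, and was called with compound 5 (1.93, adjusted p = 0.0413, or 0.0536 with the replicate block). TRIB3, a pseudokinase that restrains ATF4, had log2-fold changes of 0.91, 1.23 and 0.94 and was not called. PPP1R15A, which recruits the phosphatase of eIF2α, had the highest mean of the list (1.4, 2.31 and 1.47, called with compound 5), and PSPH, of serine synthesis, the lowest (0.08, 0.02 and −0.08).

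Which library of a pair was the higher one was shared by both lists, and also by the cytosolic elongation and release factors. Replicate 2 of compound 4, replicate 1 of compound 5 and replicate 2 of compound 6 had the higher median in the cytosolic synthetases, as given above, and also in the amino acid response, with 0.73 against 0.42, 0.83 against 0.63 and 0.75 against 0.40. In the elongation and release factors the medians were 0.27 against 0.23, 0.31 against 0.28 and 0.19 against 0.07. In the mitochondrial set the order was the opposite in compound 5. The order rests on 1 pair of libraries per compound and was not tested. MARS1 overlaps DDIT3 on the opposite strand, and whether these directional libraries were counted by strand is not given in the sources used here. The same doubt holds for the other called genes that overlap a tested gene on the opposite strand, which are YARS1 (S100PBP), GARS1 (GARS1-DT) and HARS1 (HARS2 and WDR55). The level of DDIT3 was at most 70.1 CPM where that of MARS1 was at least 186 CPM, and the part of shared reads was not tested.

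**Figure D4:**
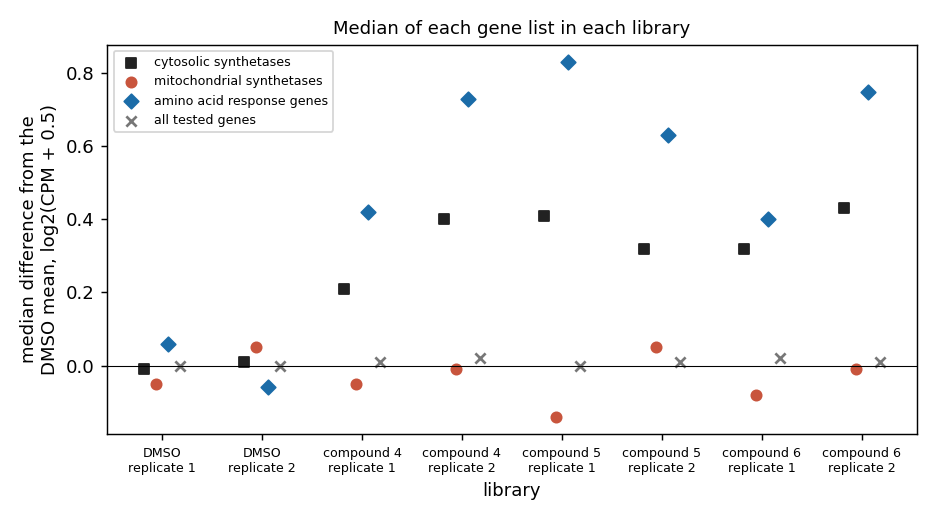
Median of log2(CPM + 0.5) minus its DMSO mean (vertical axis) of the cytosolic synthetases, the mitochondrial synthetases, the amino acid response genes and all tested genes in each library (horizontal axis). In the 6 treated libraries the cytosolic median is between 0.21 and 0.43, the amino acid response between 0.40 and 0.83 and the mitochondrial median between −0.14 and 0.05.

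Of 14 genes of tRNA maturation and export, 0, 1 and 0 were called with compounds 4, 5 and 6, where 9.51%, 8.30% and 0.575% of tested genes were. DESeq2 called 1, 2 and 1, where it called 10.8%, 10.4% and 3.91% of genes. By unadjusted p there were 3, 3 and 4, where 27.5%, 28.4% and 18.6% of tested genes were. The 1 called was XPOT, the exporter of tRNA from the nucleus, which was at 157 and 153 CPM with DMSO and at 252 and 216 CPM with compound 5 (0.59, SE 0.15, adjusted p = 0.0451, with 0.46 and 0.58 for compounds 4 and 6). ELAC1, a tRNA 3′ processing enzyme, had the lowest mean of that list, at −0.30, −0.83 and 0.04. Of the 7 synthetase relatives and trans-editing factors 0 were called in edgeR and 0 in DESeq2, with 1, 0 and 1 at an unadjusted p under 0.05. The shares of tested genes to set beside these are the same as for the tRNA maturation genes. TARS3, a further threonyl enzyme, had the highest mean (0.32, 0.28 and 0.20), and PSTK, a kinase of the selenocysteine pathway, the lowest (−0.42, −0.24 and −0.12).

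In the mitochondrial pathway that replaces a glutaminyl enzyme and formylates the initiator tRNA, 0 of 4 genes were called in edgeR and 0 in DESeq2. At an unadjusted p under 0.05 there were 1, 1 and 0. Of all tested genes, 9.51%, 8.30% and 0.575% were called in edgeR with compounds 4, 5 and 6. The shares were 10.8%, 10.4% and 3.91% in DESeq2 and 27.5%, 28.4% and 18.6% by unadjusted p. QRSL1, GATB and GATC, the subunits of the amidotransferase, had log2-fold changes of 0.11, 0.38 and 0.19, of −0.11, −0.22 and −0.22 and of −0.38, −0.12 and −0.20, and MTFMT, the formyltransferase, of −0.06, −0.27 and −0.04. GATC with compound 4 had an adjusted p of 0.0706, or 0.0470 with the replicate block. The partner of these enzymes, EARS2, was at 57.1 and 70.5 CPM with DMSO and between 54.4 and 72.6 CPM in treated cells.

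Of 8 cytosolic elongation and release factors, 2 were called higher with compound 4 (EEF1A1 and EEF2). There were 2 with compound 5 (EEF2 and ETF1) and 0 with compound 6. The shares of all tested genes called higher were 5.60%, 5.35% and 0.493%. DESeq2 called 2, 4 and 0, where it called 6.29%, 7.19% and 2.61% of genes higher. By unadjusted p there were 4, 7 and 1, all higher, where 15.1%, 15.6% and 10.9% of tested genes were. The median log2-fold changes of the 8 were 0.24, 0.31 and 0.12. All 6 treated libraries exceeded both DMSO libraries in 5 of the 8 (62.5%), beside 63.2% of the cytosolic synthetases and 14.4% of tested genes. With compound 5 the blocked fit called 6, and edgeR on the 4 libraries compared called neither EEF2 (adjusted p = 0.0784) nor ETF1 (adjusted p = 0.0735), nor EEF1A1 with compound 4 (adjusted p = 0.0888). EEF2, the translocase, had the highest mean (0.47, 0.48 and 0.31) and EIF5A the lowest (−0.17, −0.01 and −0.23). Of 9 mitochondrial translation factors, 0 were called under any compound in edgeR and 0 in DESeq2, and 0, 2 and 0 by unadjusted p. In either direction, 9.51%, 8.30% and 0.575% of tested genes were called in edgeR and 10.8%, 10.4% and 3.91% in DESeq2. By unadjusted p the shares were 27.5%, 28.4% and 18.6%. The median log2-fold changes of the 9 were −0.02, 0.00 and 0.01. GFM1 had the highest mean (0.20, 0.37 and 0.24) and MTIF3 the lowest (−0.02, −0.33 and 0.01).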

How the data were processed

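RNA of 8 samples in 4 groups (DMSO and compounds 4, 5 and 6, with 2 replicates each) was analysed. The authors quantified transcripts with Salmon 1.5.0 on GENCODE 38 (GRCh38) and collapsed them to genes by tximeta. Estimated counts were deposited as whole numbers, not normalized. Offsets for transcript length were not used. Library totals had a median of 11108659.5.

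The tests used edgeR 4.0.16 under R 4.3.3 (TMM, filterByExpr at a minimum count of 10, 1 unblocked quasi-likelihood fit over the 8 samples, Benjamini-Hochberg over 13400 genes, threshold 0.05). CPM values use TMM-scaled library sizes. The biological coefficient of variation was 12.2%. The labels do not state separate cultures, so p-values measure the spread between these samples, which may be technical, and no permutation of 2 against 2 samples gives a two-sided exact p below 0.333. The fit was tested on simulated data with equal dispersion in every gene, no replicate effect and larger changes than the members had. That test does not measure the error of the calls given here. Alternatives were DESeq2 1.42.0, a replicate block, other scaling and filters, the 4 samples compared, and leaving out each library. The day in the labels pairs the replicates; the replicates' deviations from their group means correlated at r of −0.16 to 0.30 between pairs of groups (over genes, which are no replicates).

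Members and lists were chosen with earlier results of these data known. All 35 members are named, as are, of each comparison list, the tested genes with the highest and lowest mean log2-fold change over the compounds, every gene of lists of up to 4, and ATF4, DDIT3, TRIB3 and ASNS. No set test was run. Lengths and overlaps were taken from GENCODE 29 and promoter windows from RefSeq (GRCh38.p14). Figures were drawn in Python 3.11.15.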

Additional observations from a re-analysis of the deposited data

How the results depend on the processing

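With 2 libraries per group, the calls depend more on the setting than the direction does. With compound 4, 4 members were called, all cytosolic. DESeq2, the fit of the 4 samples compared and the fit without a filter called 8 each. Of these, 7 were cytosolic and higher and 1 was mitochondrial and lower. These settings called 10.8%, 11.9% and 10.3% of all genes in either direction, and 6.29%, 6.73% and 5.78% higher. That 1 mitochondrial gene, LARS2, was also called with the replicate block, with DESeq2's size factors and with 10 counts required in every sample. With compound 6, where 0 members were called, the counts were 7 in DESeq2, 1 with the replicate block, 9 in the 4 samples compared, 7 without a filter and 3 with 10 counts in every sample, all cytosolic and higher, where 2.61%, 0.418%, 4.39%, 3.60% and 1.33% of all genes were called higher. With compound 5 these 5 settings called 8, 8, 7, 9 and 8, and DESeq2's size factors 6, all cytosolic and higher. In the same order, 7.19%, 6.63%, 4.25%, 6.14%, 6.05% and 5.05% of all genes were called higher. As each library was left out, the members called ranged from 0 to 7 with compound 4 (cytosolic 0 to 7, mitochondrial 0 to 1), from 0 to 8 with compound 5 (all cytosolic) and from 0 to 3 with compound 6 (all cytosolic). Fewer samples entered these fits, and a lone sample left in a group was assumed to vary like the others. The 0 counts between compounds, and the mitochondrial 0 with compounds 5 and 6, were the same under all 14 alternatives.

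The cytosolic median log2-fold change ranged from 0.16 to 0.42 with compound 4, from 0.29 to 0.41 with compound 5 and from 0.23 to 0.46 with compound 6 as single libraries or replicate numbers were left out, and the mitochondrial one from −0.09 to −0.02, −0.14 to 0.03 and −0.10 to −0.01. Of 2940 values of single members under these alternatives, 0 changed sign with a call on either side, 40 lost a call (37 of them with a library left out) and 68 gained one. Only the 4 members called with compound 4 and the 7 called with compound 5 had a call to lose, each under 14 alternatives. The 2940 values are therefore not the base for the calls lost. With 1 replicate number left out no test can be made. Apart from LARS2 and the genes given beside their results, the replicate block, with the pairing by day, changed no call of a member.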
